A study of Mus musculus with 12 samples.

Results

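The genes of sterol and fatty acid synthesis that are known targets of the sterol regulatory element-binding proteins (SREBPs), with regulators of the pathway, were followed here gene by gene in the hippocampus of an Alzheimer's disease mouse model. The set holds 33 protein-coding genes of the 55573 genes in the count table, chosen by name for their place in the pathway. Of these, 32 passed the filter on low values and were tested among 14008 genes. Fdps was the member that did not pass.

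In each sex, the whole right hippocampus was taken from 4 APP/PS1 and 2 WT animals, all 4.5 months old and of the C57BL/6J strain, and 1 directional library of polyadenylated RNA was sequenced from each animal. WT animals lack the APP and PS1 transgenes of the APP/PS1 genotype (APPSwe/Ps1dE9). Prion promoter sequence drives these transgenes, of which APP carries disease mutations and PS1 lacks exon 9. The study asked how the hippocampal transcriptome of this model differs between the sexes, and total counts ran from 36714316 to 50643565 per library.

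Cholesterol is built from acetyl-CoA by way of mevalonate, isoprenoids, squalene and lanosterol, and fatty acids are built from the same precursor by carboxylation, repeated condensation, elongation and desaturation. SREBP2 mainly drives the sterol genes and SREBP1 mainly the fatty acid genes, after their precursors leave the endoplasmic reticulum and are cut in the Golgi, and INSIG proteins retain the precursors when sterols are plentiful. The adult brain makes nearly all of its own cholesterol, since lipoproteins do not cross the blood-brain barrier, and astrocytes are a main source for neurons while oligodendrocytes make it for myelin.

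The labelled tissue was checked against 7 hippocampal neuron markers, which all passed the filter. Their summed level was 881.1 ± 40.8 normalized CPM (CPM are counts relative to library size, which was scaled by upper-quartile factors, mean ± SD, n = 8) in APP/PS1 and 889.5 ± 58.2 (n = 4) in WT, with Neurod6 the most abundant. Thy1, which was picked because earlier results of these data had shown it to separate the genotypes and so is no independent check of the labels, lay between 2173 and 3311 normalized CPM in the 8 APP/PS1 libraries and between 725.8 and 746.5 in the 4 WT libraries. Libraries APP/PS1 female 1, WT female 2 and APP/PS1 male 2 stood apart in choroid plexus transcripts. The summed level of 7 choroid plexus markers, led by Ttr, was 3901, 4071 and 6925 normalized CPM in these 3 libraries and between 25.6 and 44.3 in the others. For the members, results are given with these libraries. Where a call or a count changed, a fit without these libraries and without RUV factors is also given. RUV factors are covariates that take up unwanted variation between libraries. For the other gene lists and the markers, no values from that fit are given.

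Averaged over the sexes, 13 of 18 tested enzymes of the mevalonate, isoprenoid and sterol ring steps (the sterol enzymes, among which Ggps1 is counted although it leads to other isoprenoids) were higher in APP/PS1 hippocampus and the sterol carrier Stard4 rose 1.94-fold, while 9 of the 10 fatty acid genes did not pass the test. In this average, 17 of the 32 tested members were higher in APP/PS1 at a false discovery rate (FDR, Benjamini-Hochberg over all genes tested with edgeR's quasi-likelihood test) under 0.1, and 0 were lower. The model also held 2 RUV factors. Among all 14008 genes, 1.75% were called higher in this comparison. With edgeR's likelihood ratio test 20 members were called higher, beside 2.38% of all genes, and with DESeq2 21, beside 2.18%. Over 23 alternative fits, these 2 included, the number of called members ran from 10 to 21, and it was 10 without WT female 1, beside 0.671% of all genes in either direction. At an unadjusted p under 0.05 the quasi-likelihood test held 22 members, beside 9.57% of all genes. The members' median log2 fold change (LFC) was 0.25, beside 0.00956 over all genes, and 31 of the 32 lay above 0, beside 54.7% of all genes. In 16 of the 32 members, all 8 APP/PS1 animals lay above all 4 WT animals, which held for 1.31% of all genes. Ordered by p among all genes, Stard4 came at place 6, Hmgcs1 at place 8 and Sqle at place 11, and 6 members were among the 20 genes with the smallest p. The p-values measure the spread between animals, of which there were 2 WT in each sex. In bulk tissue such as this, a change in the number of cells of a type and a change in RNA per cell cannot be told apart.

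**Figure D1:**
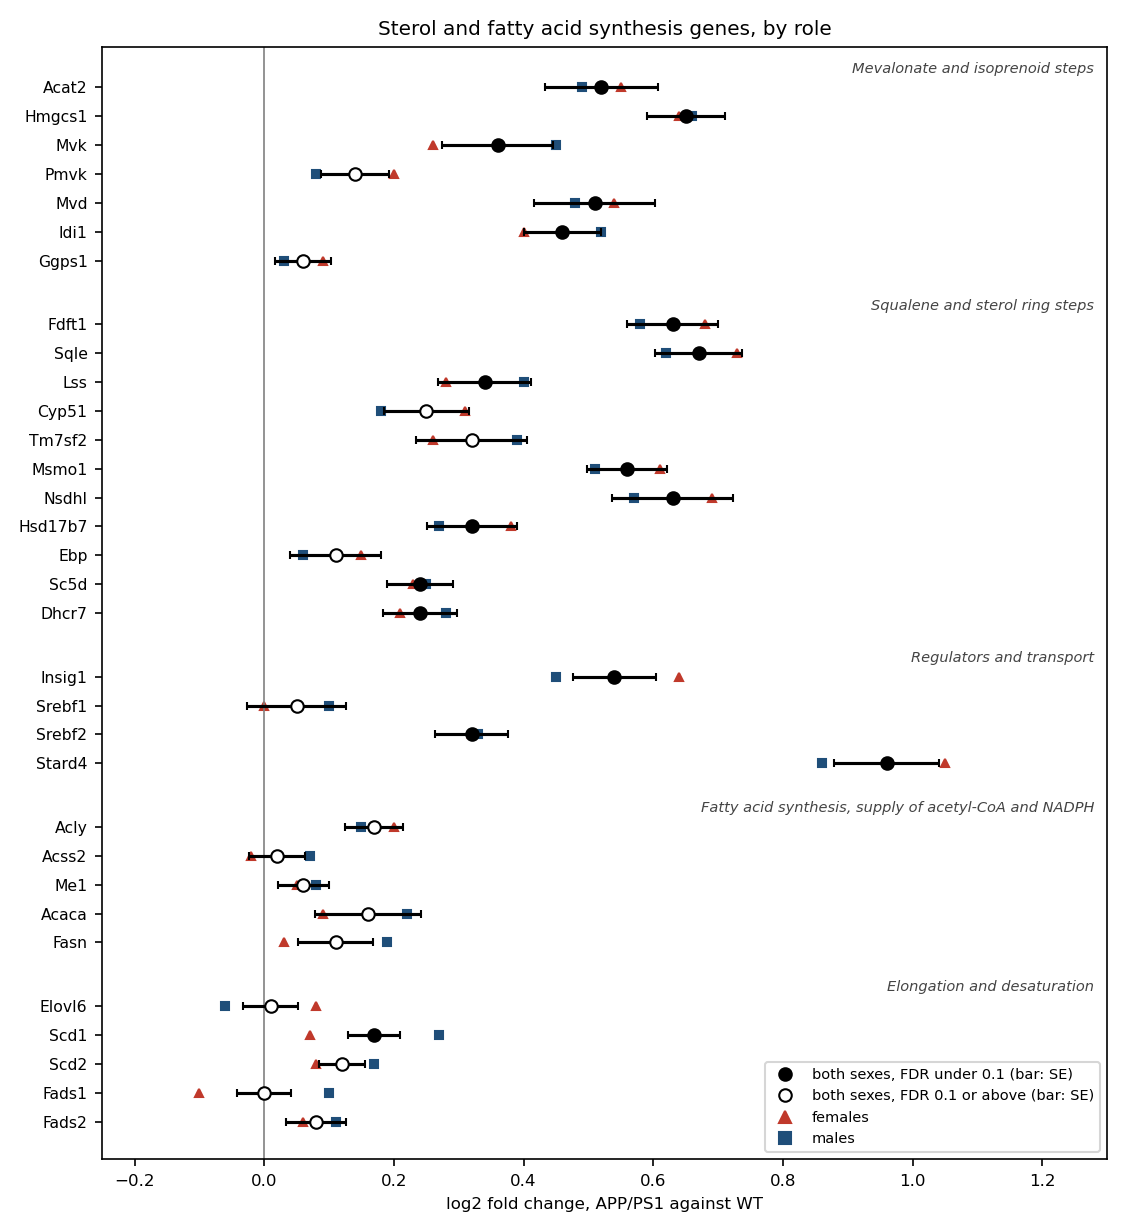
Fitted LFC of the 32 tested members between APP/PS1 and WT, ordered by role in the pathway. Circles give the average over the sexes, with the SE as a bar, filled at an FDR under 0.1. Triangles give females and squares males. In the average, Stard4 lies farthest from 0, and the fatty acid genes lie between 0.00 and 0.17.

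Members also differed in abundance. Per kilobase of exon, the highest mean WT level was that of the stearoyl-CoA desaturase Scd2, at 237.1 normalized CPM per kb. The fatty acid desaturase Fads2 followed at 55.3, and Hmgcs1 at 51.6 was the most abundant sterol enzyme on this scale. Of the tested members, lanosterol synthase (Lss) was lowest, at 2.42 normalized CPM per kb. Srebf2 stood at 26.7 and Srebf1 at 7.26 per kb in WT.

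The mevalonate and isoprenoid steps turn acetyl-CoA into the building blocks of sterols, dolichol and prenyl groups. Of the 8 genes listed, 7 were tested, and 5 rose in APP/PS1 (Hmgcs1, Idi1, Acat2, Mvd and Mvk). The median LFC of the 7 was 0.46, with a range of 0.06 to 0.65. Without WT female 1, 3 of them were called (Hmgcs1, Idi1 and Acat2). The summed level of the 8 genes was 597.4 ± 40.8 normalized CPM (n = 8) in APP/PS1 and 413.8 ± 27.8 (n = 4) in WT.

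Hmgcs1 (ENSMUSG00000093930, chromosome 13, 119690379 to 119708260, plus strand of GRCm38) encodes the cytosolic synthase that makes HMG-CoA. Its normalized CPM was 354.5, 365.2, 424.0 and 409.3 in APP/PS1 females 1 to 4, 223.3 and 257.4 in WT females 1 and 2, 358.3, 390.2, 402.7 and 338.9 in APP/PS1 males 1 to 4, and 255.5 and 211.3 in WT males 1 and 2. Every APP/PS1 animal lay above every WT animal of either sex, with WT female 2 the highest of the WT animals. The rise was 1.57-fold (LFC 0.65, SE 0.0602, edgeR FDR = 1.5e-04). Acat2 (ENSMUSG00000023832, chromosome 17, 12942890 to 12960747, minus strand), the cytosolic acetyl-CoA acetyltransferase that makes acetoacetyl-CoA, stood at 38.9, 37.1, 47.6 and 42.8 in APP/PS1 females 1 to 4, 24.7 and 30.6 in WT females 1 and 2, 38.6, 37.4, 45.3 and 35.7 in APP/PS1 males 1 to 4, and 27.0 and 28.6 in WT males 1 and 2. The groups did not overlap, and APP/PS1 female 3 and APP/PS1 male 3 were highest. The rise was 1.43-fold (LFC 0.52, SE 0.0875, edgeR FDR = 0.0132). Idi1 (ENSMUSG00000058258, chromosome 13, 8885501 to 8892451, plus strand), the isomerase that makes dimethylallyl diphosphate, was measured at 30.5, 28.0, 33.1 and 36.3 in APP/PS1 females 1 to 4, 22.4 and 23.2 in WT females 1 and 2, 33.1, 34.0, 38.3 and 30.5 in APP/PS1 males 1 to 4, and 26.0 and 21.4 in WT males 1 and 2. Here too the 8 APP/PS1 animals lay above the 4 WT animals, the nearest pair being APP/PS1 female 2 and WT male 1. The rise was 1.37-fold (LFC 0.46, SE 0.0600, edgeR FDR = 0.00212), and it was not called without the 3 choroid-plexus-rich libraries and RUV factors, at an LFC of 0.53. Hmgcs1 and Idi1 each overlap an annotated gene on the opposite strand, so their counts are uncertain to the extent that the strand option of the counting is not known.

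The remaining genes of these steps were mixed. Mevalonate diphosphate decarboxylase (Mvd) rose with LFC 0.51, SE 0.0934, edgeR FDR = 0.0180. Mevalonate kinase (Mvk) rose with LFC 0.36, SE 0.0857, edgeR FDR = 0.0714, and the Mvk ranges overlapped, from 17.5 to 23.6 normalized CPM in APP/PS1 and from 14.1 to 18.3 in WT. Phosphomevalonate kinase (Pmvk) was not called, at 0.14 (SE 0.0525, edgeR FDR = 0.364), although its APP/PS1 values of 27.6 to 31.8 all lay above its WT values of 24.2 to 27.0. Geranylgeranyl diphosphate synthase (Ggps1), which leads away from sterols, was not called, at 0.06 (SE 0.0437, edgeR FDR = 0.697). Farnesyl diphosphate synthase (Fdps; ENSMUSG00000059743, chromosome 3, 89093588 to 89101959, minus strand) had between 7 and 70 counts per library, and its normalized CPM was 0.988, 1.44, 1.61 and 0.641 in APP/PS1 females 1 to 4, 0.185 and 0.614 in WT females 1 and 2, 0.930, 0.792, 0.701 and 0.967 in APP/PS1 males 1 to 4, and 0.421 and 0.394 in WT males 1 and 2. Every APP/PS1 value lay above every WT value, the nearest being APP/PS1 female 4 and WT female 2. In the fit without the filter on low values, its LFC was 1.32 (SE 0.281, edgeR FDR = 0.00976). Fdps is uncertain, since it overlaps Gm43738 on the same strand, a gene with 0 counts in each library.

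Squalene formation, its cyclization and the trimming of the sterol ring followed the same direction. Of these 11 genes, 8 rose in APP/PS1 (Sqle, Msmo1, Fdft1, Nsdhl, Sc5d, Lss, Hsd17b7 and Dhcr7), and the median LFC of the 11 was 0.32, with a range of 0.11 to 0.67. The summed level was 658.0 ± 34.6 normalized CPM (n = 8) in APP/PS1 and 483.6 ± 29.6 (n = 4) in WT.

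Fdft1 (ENSMUSG00000021273, chromosome 14, 63145150 to 63179578, minus strand), squalene synthase, commits farnesyl diphosphate to sterols. In normalized CPM it was at 105.9, 107.6, 128.4 and 114.6 in APP/PS1 females 1 to 4, 63.2 and 79.1 in WT females 1 and 2, 101.0, 112.6, 113.4 and 108.1 in APP/PS1 males 1 to 4, and 71.9 and 72.7 in WT males 1 and 2. All APP/PS1 animals were above all WT animals, and WT female 1 was the lowest of the 12. The rise was 1.55-fold (LFC 0.63, SE 0.0703, edgeR FDR = 8.6e-04), and Fdft1 is uncertain because a gene on the opposite strand overlaps it. Sqle (ENSMUSG00000022351, chromosome 15, 59315077 to 59331192, plus strand), squalene epoxidase, is a rate-limiting enzyme of the sterol branch and was at 80.8, 81.4, 97.8 and 81.0 in APP/PS1 females 1 to 4, 48.0 and 55.2 in WT females 1 and 2, 78.0, 85.1, 88.6 and 83.7 in APP/PS1 males 1 to 4, and 54.5 and 54.3 in WT males 1 and 2. APP/PS1 female 3 was the highest animal, the other 7 APP/PS1 animals lay close together, and none reached down to the WT range. The rise was 1.60-fold (LFC 0.67, SE 0.0667, edgeR FDR = 2.4e-04). Msmo1 (ENSMUSG00000031604, chromosome 8, 64718139 to 64733792, minus strand), the C4-methyl sterol oxidase, was at 115.7, 116.0, 138.7 and 138.8 in APP/PS1 females 1 to 4, 73.9 and 84.4 in WT females 1 and 2, 123.4, 124.9, 137.4 and 109.7 in APP/PS1 males 1 to 4, and 95.7 and 78.2 in WT males 1 and 2. The groups were apart, with APP/PS1 male 4 the lowest APP/PS1 animal and WT male 1 the highest WT animal. The rise was 1.47-fold (LFC 0.56, SE 0.0614, edgeR FDR = 5.8e-04). Nsdhl (ENSMUSG00000031349, chromosome X, 72918557 to 72958514, plus strand), the X-linked dehydrogenase that acts with Msmo1 in removing the C4 methyl groups, was at 22.6, 21.8, 28.2 and 25.0 in APP/PS1 females 1 to 4, 13.5 and 16.3 in WT females 1 and 2, 21.3, 24.0, 21.0 and 22.7 in APP/PS1 males 1 to 4, and 17.1 and 12.7 in WT males 1 and 2. Again no WT animal reached the APP/PS1 range, and WT male 1 came closest. The rise was 1.54-fold (LFC 0.63, SE 0.0929, edgeR FDR = 0.00630).

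The other ring enzymes showed smaller differences. Lathosterol oxidase (Sc5d) rose with LFC 0.24, SE 0.0507, edgeR FDR = 0.0364, and 7-dehydrocholesterol reductase (Dhcr7) with LFC 0.24, SE 0.0568, edgeR FDR = 0.0599. For both, the APP/PS1 and WT animals did not overlap. Lanosterol synthase (Lss) rose with LFC 0.34, SE 0.0716, edgeR FDR = 0.0387, from 25.9 to 36.7 normalized CPM in APP/PS1 and from 24.0 to 29.6 in WT, so that its groups overlapped. The keto reductase Hsd17b7 rose with LFC 0.32, SE 0.0694, edgeR FDR = 0.0406, and its groups overlapped by APP/PS1 male 2 at 25.7 and WT male 1 at 26.0. With edgeR's likelihood ratio test and with DESeq2, 10 of the 11 genes were called, and without WT female 1, 4 were (Fdft1, Sqle, Msmo1 and Nsdhl). Not called by the quasi-likelihood test were the lanosterol demethylase Cyp51, at 0.25 (SE 0.0657, edgeR FDR = 0.115), the sterol reductase Tm7sf2, at 0.32 (SE 0.0856, edgeR FDR = 0.113), and the isomerase Ebp, at 0.11 (SE 0.0696, edgeR FDR = 0.678). Cyp51 and Tm7sf2 were called by both other tools. Cyp51 and Lss overlap genes on the opposite strand and Tm7sf2 one on its own strand, and their values are uncertain for that reason.

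Promoters are shown for sterol genes that moved together and for their transcription factor, to let the regulatory letters near the start be seen. RefSeq promoter entries (GRCm38.p6, 250 bases before to 50 bases after the start) matched 26 of the 33 members, and Fdps, Fdft1, Sqle, Stard4, Scd1, Scd2 and Fads1 had no entry. Both strands were searched for TCACNCCAC (a core of the sterol regulatory element), CCAAT (the NF-Y box) and CCGCCC (the Sp1 box), and no matches overlapped in the promoters shown. The sequences run 5′ to 3′ along the gene's strand, and capitals mark the matches, a match on the other strand appearing as its reverse complement. They are Hmgcs1 (chr13:119690101-119690400, plus strand), Msmo1 (chr8:64733529-64733828, minus strand) and Srebf2 (chr15:82147019-82147318, plus strand), with Insig1 (chr5:28071162-28071461, plus strand) and Idi1 (chr13:8885356-8885655, plus strand), the matched members with the next smallest p, which were added after their values were seen.
Hmgcs1: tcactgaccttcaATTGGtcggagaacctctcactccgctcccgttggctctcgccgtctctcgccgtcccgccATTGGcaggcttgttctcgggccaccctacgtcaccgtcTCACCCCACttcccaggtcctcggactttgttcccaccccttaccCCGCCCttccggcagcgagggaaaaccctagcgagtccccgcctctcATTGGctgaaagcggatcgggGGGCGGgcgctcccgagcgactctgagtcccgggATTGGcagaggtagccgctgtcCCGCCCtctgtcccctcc
Idi1: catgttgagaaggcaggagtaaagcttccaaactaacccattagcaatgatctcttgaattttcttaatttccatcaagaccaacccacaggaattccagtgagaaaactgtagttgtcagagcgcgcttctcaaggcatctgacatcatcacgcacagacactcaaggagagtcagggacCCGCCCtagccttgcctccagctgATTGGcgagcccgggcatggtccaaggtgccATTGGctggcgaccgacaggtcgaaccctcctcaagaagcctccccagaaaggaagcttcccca
Msmo1: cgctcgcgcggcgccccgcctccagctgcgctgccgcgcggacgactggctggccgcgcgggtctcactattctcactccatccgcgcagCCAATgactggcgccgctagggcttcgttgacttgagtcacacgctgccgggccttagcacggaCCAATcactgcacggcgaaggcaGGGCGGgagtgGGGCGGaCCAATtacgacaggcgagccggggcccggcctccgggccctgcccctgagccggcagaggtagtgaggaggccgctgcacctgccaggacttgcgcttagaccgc
Insig1: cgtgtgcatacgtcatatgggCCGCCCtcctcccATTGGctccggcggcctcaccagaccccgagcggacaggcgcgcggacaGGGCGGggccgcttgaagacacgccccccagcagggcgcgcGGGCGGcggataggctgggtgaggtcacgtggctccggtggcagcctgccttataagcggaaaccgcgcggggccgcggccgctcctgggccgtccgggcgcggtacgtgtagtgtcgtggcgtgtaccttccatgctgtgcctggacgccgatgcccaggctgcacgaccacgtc
Srebf2: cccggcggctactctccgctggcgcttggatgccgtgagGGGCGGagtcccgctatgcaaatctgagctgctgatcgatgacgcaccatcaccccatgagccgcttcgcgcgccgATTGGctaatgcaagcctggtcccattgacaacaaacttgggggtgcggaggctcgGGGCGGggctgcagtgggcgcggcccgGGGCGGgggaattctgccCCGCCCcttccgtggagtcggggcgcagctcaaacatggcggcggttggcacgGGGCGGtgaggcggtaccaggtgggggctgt

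The Hmgcs1 promoter held 1 match to TCACNCCAC, which begins 137 bases before the start, with 4 matches to CCAAT and 3 to CCGCCC. The Idi1 promoter held 0, 2 and 1 matches to these motifs in the same order. That of Msmo1 held 0, 3 and 2, that of Insig1 0, 1 and 3, and that of Srebf2 0, 1 and 5. Counting a gene once whatever its number of entries, TCACNCCAC was in 1 of the 26 members (3.85%), beside 1.44% of all 27025 genes with an entry and 1.41% of the 10615 of them that were tested here. CCAAT was in 22 of the 26 members (84.6%), beside 41.1% of all genes and 42.7% of the tested genes. CCGCCC was in 21 members (80.8%), beside 38.2% of all genes and 68.8% of the tested genes. A match describes letters in this window and is not a site shown to be bound.

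Among the regulators and the transport gene, 3 of 4 rose in APP/PS1 (Stard4, Insig1 and Srebf2). Srebf2 (ENSMUSG00000022463, chromosome 15, 82147181 to 82205379, plus strand) encodes SREBP2 and is itself a target of SREBPs. In normalized CPM it was at 212.1, 246.7, 268.9 and 235.4 in APP/PS1 females 1 to 4, 187.9 and 199.1 in WT females 1 and 2, 233.6, 232.1, 230.2 and 248.6 in APP/PS1 males 1 to 4, and 182.2 and 197.5 in WT males 1 and 2. All 8 APP/PS1 animals were above all 4 WT animals, the closest being APP/PS1 female 1 and WT female 2. The rise was 1.25-fold (LFC 0.32, SE 0.0562, edgeR FDR = 0.0132). Insig1 (ENSMUSG00000045294, chromosome 5, 28071363 to 28078662, plus strand), a sterol-responsive protein that retains SREBP precursors in the endoplasmic reticulum, was at 89.4, 92.2, 84.3 and 82.2 in APP/PS1 females 1 to 4, 50.3 and 63.5 in WT females 1 and 2, 82.0, 100.6, 94.4 and 77.3 in APP/PS1 males 1 to 4, and 64.7 and 60.9 in WT males 1 and 2. The groups did not overlap, and APP/PS1 male 2 was highest and WT female 1 lowest. The rise was 1.46-fold (LFC 0.54, SE 0.0636, edgeR FDR = 8.9e-04). Srebf1 (ENSMUSG00000020538, chromosome 11, 60199089 to 60222581, minus strand), which encodes SREBP1, was at 43.7, 40.9, 42.9 and 34.1 in APP/PS1 females 1 to 4, 42.1 and 43.5 in WT females 1 and 2, 39.8, 54.1, 36.1 and 43.4 in APP/PS1 males 1 to 4, and 34.8 and 43.2 in WT males 1 and 2. The highest and the lowest animal were both APP/PS1, a male and a female, and the groups overlapped throughout. Its LFC was 0.05 (SE 0.0761, edgeR FDR = 0.903), with a 95% interval of -0.12 to 0.21. Without the 3 choroid-plexus-rich libraries and RUV factors its LFC was -0.03, and without WT male 1 it was -0.02. Srebf1 is uncertain, since it overlaps a gene on each strand.

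Stard4 (ENSMUSG00000024378, chromosome 18, 33199355 to 33213862, minus strand), a soluble sterol carrier of the START family and a known SREBP2 target, differed most in fold among the tested members. Its normalized CPM was 48.6, 49.1, 60.9 and 58.7 in APP/PS1 females 1 to 4, 22.2 and 28.5 in WT females 1 and 2, 48.0, 53.7, 56.1 and 47.8 in APP/PS1 males 1 to 4, and 28.3 and 27.6 in WT males 1 and 2. Each APP/PS1 animal was well above each WT animal, and the lowest APP/PS1 animal (male 4) exceeded the highest WT animal (female 2) by more than the spread within either WT group. The rise was 1.94-fold (LFC 0.96, SE 0.0805, edgeR FDR = 8.9e-05, 95% interval 0.78 to 1.13). For each of the 10 called members given animal by animal (Stard4, Hmgcs1, Sqle, Msmo1, Fdft1, Insig1, Idi1, Nsdhl, Acat2 and Srebf2), the exact permutation test of genotype within sex, two-sided over 225 assignments, gave p = 0.00444, the smallest it can give. The genes had been picked for their small edgeR p in the same animals, and their groups do not overlap, so this p adds no support of its own.

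**Figure D2:**
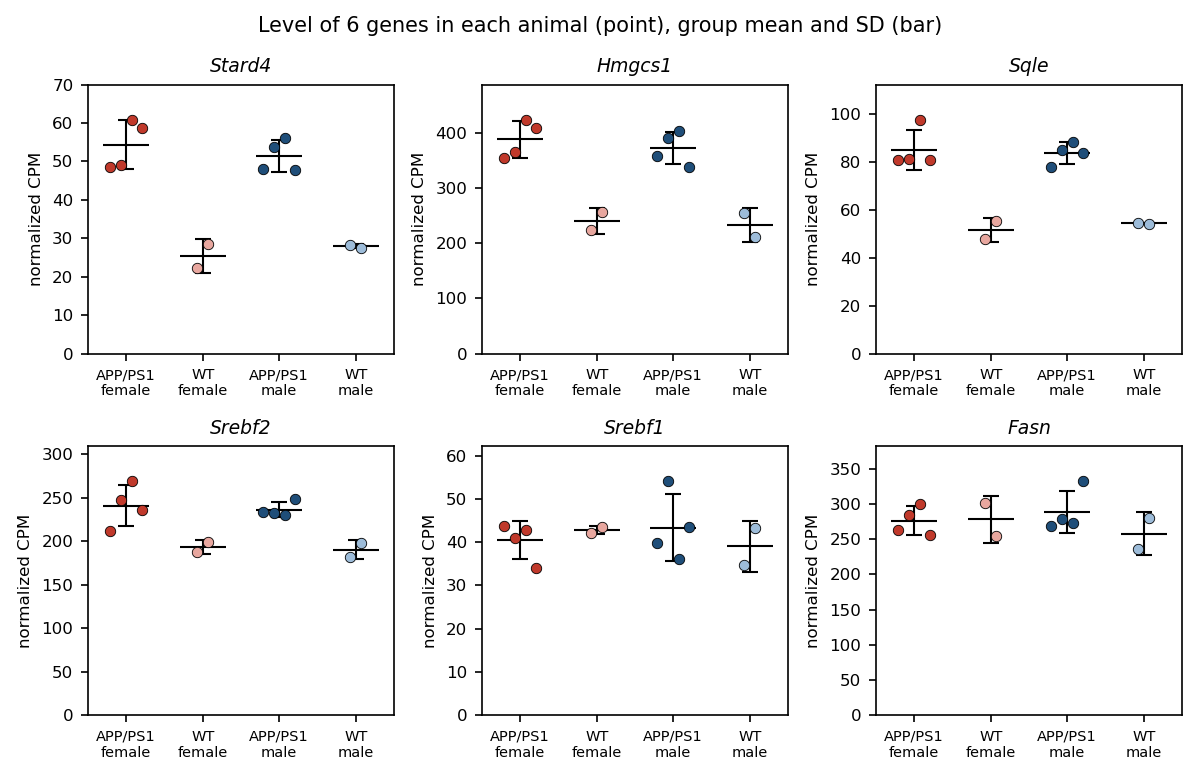
Normalized CPM of Stard4, Hmgcs1, Sqle, Srebf2, Srebf1 and Fasn, with a point for each animal and the mean and SD of each group (4 APP/PS1 or 2 WT animals of a sex). The APP/PS1 and WT animals are apart for Stard4, Hmgcs1, Sqle and Srebf2 and overlap for Srebf1 and Fasn.

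The genes that supply acetyl-CoA and NADPH and build palmitate were not called. With edgeR's quasi-likelihood test 0 of the 5 passed, 1 had an unadjusted p under 0.05 (9.57% of all genes did), and edgeR's likelihood ratio test and DESeq2 each called 1, Acly. The median LFC of the 5 was 0.11, and their summed level was 676.9 ± 38.8 normalized CPM (n = 8) in APP/PS1 and 631.7 ± 41.5 (n = 4) in WT. Acaca (ENSMUSG00000020532, chromosome 11, 84129672 to 84401651, plus strand), acetyl-CoA carboxylase, makes the first committed product, malonyl-CoA. Its normalized CPM was 88.0, 82.4, 104.1 and 84.8 in APP/PS1 females 1 to 4, 88.8 and 83.7 in WT females 1 and 2, 84.2, 96.1, 93.0 and 101.4 in APP/PS1 males 1 to 4, and 70.7 and 90.9 in WT males 1 and 2. WT male 1 was lowest, APP/PS1 female 3 was highest, and the remaining animals of the genotypes were intermixed. The LFC was 0.16 (SE 0.0815, edgeR FDR = 0.586), with a 95% interval of -0.02 to 0.33 and an exact permutation p of 0.182. Fasn (ENSMUSG00000025153, chromosome 11, 120805846 to 120824547, minus strand), fatty acid synthase, was at 263.5, 284.9, 300.7 and 255.7 in APP/PS1 females 1 to 4, 301.9 and 254.6 in WT females 1 and 2, 268.3, 279.1, 273.2 and 332.8 in APP/PS1 males 1 to 4, and 236.2 and 279.7 in WT males 1 and 2. APP/PS1 male 4 was highest, WT female 1 second and WT male 1 lowest, so that the groups overlapped. The LFC was 0.11 (SE 0.0577, edgeR FDR = 0.586), with a 95% interval of -0.02 to 0.23 and an exact permutation p of 0.453. These intervals end below the LFC of Stard4, Hmgcs1 and Sqle. ATP citrate lyase (Acly) reached 0.17 (SE 0.0448, edgeR FDR = 0.106) with no overlap between its groups, from 170.7 to 203.7 in APP/PS1 and from 154.6 to 170.2 in WT. The acetyl-CoA synthetase Acss2 was at 0.02 (SE 0.0430, edgeR FDR = 0.912) and malic enzyme (Me1) at 0.06 (SE 0.0395, edgeR FDR = 0.664).

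Elongation and desaturation set the length and saturation of the fatty acids made. Of these 5 genes, 1 rose in APP/PS1, the desaturase Scd1 (LFC 0.17, SE 0.0401, edgeR FDR = 0.0606), and its groups overlapped, from 150.4 to 168.0 normalized CPM in APP/PS1 and from 126.6 to 158.9 in WT. The major brain desaturase Scd2 was not called by the quasi-likelihood or the likelihood ratio test and was called by DESeq2, at a quasi-likelihood estimate of 0.12 (SE 0.0353, edgeR FDR = 0.161), with APP/PS1 animals between 1379 and 1437 normalized CPM and WT animals between 1233 and 1351. The delta-6 and delta-5 desaturases were at 0.08 (SE 0.0463, edgeR FDR = 0.599) for Fads2 and 0.00 (SE 0.0415) for Fads1, neither of them called. The elongase Elovl6 was at 0.01 (SE 0.0426, edgeR FDR = 0.966), and its estimate lay at -0.03 without the 3 choroid-plexus-rich libraries and RUV factors, at -0.03 without WT female 2 and at -0.01 without WT male 1 or without the filter on low values. Ggps1, Acss2, Me1 and Elovl6 overlap genes on the opposite strand and Scd2 one on its own strand, so their values are uncertain.

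Set side by side, the sterol enzymes and the fatty acid genes differed in how many were called. By the quasi-likelihood test, 13 of the 18 tested sterol enzymes rose, with a median LFC of 0.35. Of the 10 fatty acid genes 1 rose, with a median of 0.10, and 1.75% of all genes were called higher. By the likelihood ratio test 15 sterol enzymes and 2 fatty acid genes rose, beside 2.38% of all genes. By DESeq2 15 and 3 rose, beside 2.18%. Some other fits called fewer, among all genes too, and their shares are given below with the counts of all members. The sterol enzymes numbered 7 without WT female 1, 8 without WT female 2, 9 without WT male 2, 8 with the replicate number as a block, 11 with 0 RUV factors and 7 without the 3 choroid-plexus-rich libraries and RUV factors, each with 0 fatty acid genes. The difference between these medians was not tested. The summed level of the sterol enzymes, in normalized CPM, was 1206, 1211, 1367 and 1308 in APP/PS1 females 1 to 4, 841.9 and 942.9 in WT females 1 and 2, 1181, 1260, 1336 and 1175 in APP/PS1 males 1 to 4, and 949.8 and 854.8 in WT males 1 and 2. All APP/PS1 sums were above all WT sums, and the lowest of them belonged to APP/PS1 male 4. The summed level of the fatty acid genes was 2647, 2736, 2744 and 2663 in APP/PS1 females 1 to 4, 2632 and 2540 in WT females 1 and 2, 2659, 2697, 2676 and 2776 in APP/PS1 males 1 to 4, and 2417 and 2458 in WT males 1 and 2. These sums, of which Scd2 makes up the largest share, were also higher in each APP/PS1 animal than in each WT animal, but by a small margin, with APP/PS1 female 1 just above WT female 1. The ratio of mean sums was 1.40 for the sterol enzymes and 1.07 for the fatty acid genes.

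The sterol enzymes were also read within single animals. Against the mean of the WT animals of the same sex, the median log2 ratio of the 18 tested sterol enzymes was 0.34, 0.34, 0.43 and 0.42 in APP/PS1 females 1 to 4 and 0.26, 0.42, 0.47 and 0.36 in APP/PS1 males 1 to 4. All 18 were above 0 in 7 of these 8 animals, and 17 were in APP/PS1 male 4. In WT females 1 and 2 the medians were -0.07 and 0.07, with 1 and 17 of the 18 above 0, and in WT males 1 and 2 they were 0.01 and -0.01, with 11 and 7 above 0. Each WT animal is part of the mean it is set against, so that the 2 values of a sex mirror each other and lie nearer 0 than they would against the other animal, and their size is not compared with that of the APP/PS1 values. Over all 14008 genes, the share above 0 lay between 48.4% and 56.6% in the APP/PS1 animals and, mirrored in the same way, between 42.1% and 57.9% in the WT animals. Ratios within a sex share the same 2 WT animals. For the 10 fatty acid genes the median log2 ratio was 0.04, 0.05, 0.09 and 0.02 in APP/PS1 females 1 to 4 and 0.07, 0.14, 0.13 and 0.17 in APP/PS1 males 1 to 4. Each of the 8 sterol medians exceeded the fatty acid median of the same APP/PS1 animal. The map of log2 ratios in each animal shows this by gene, with Stard4 the deepest in each APP/PS1 animal.

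**Figure D3:**
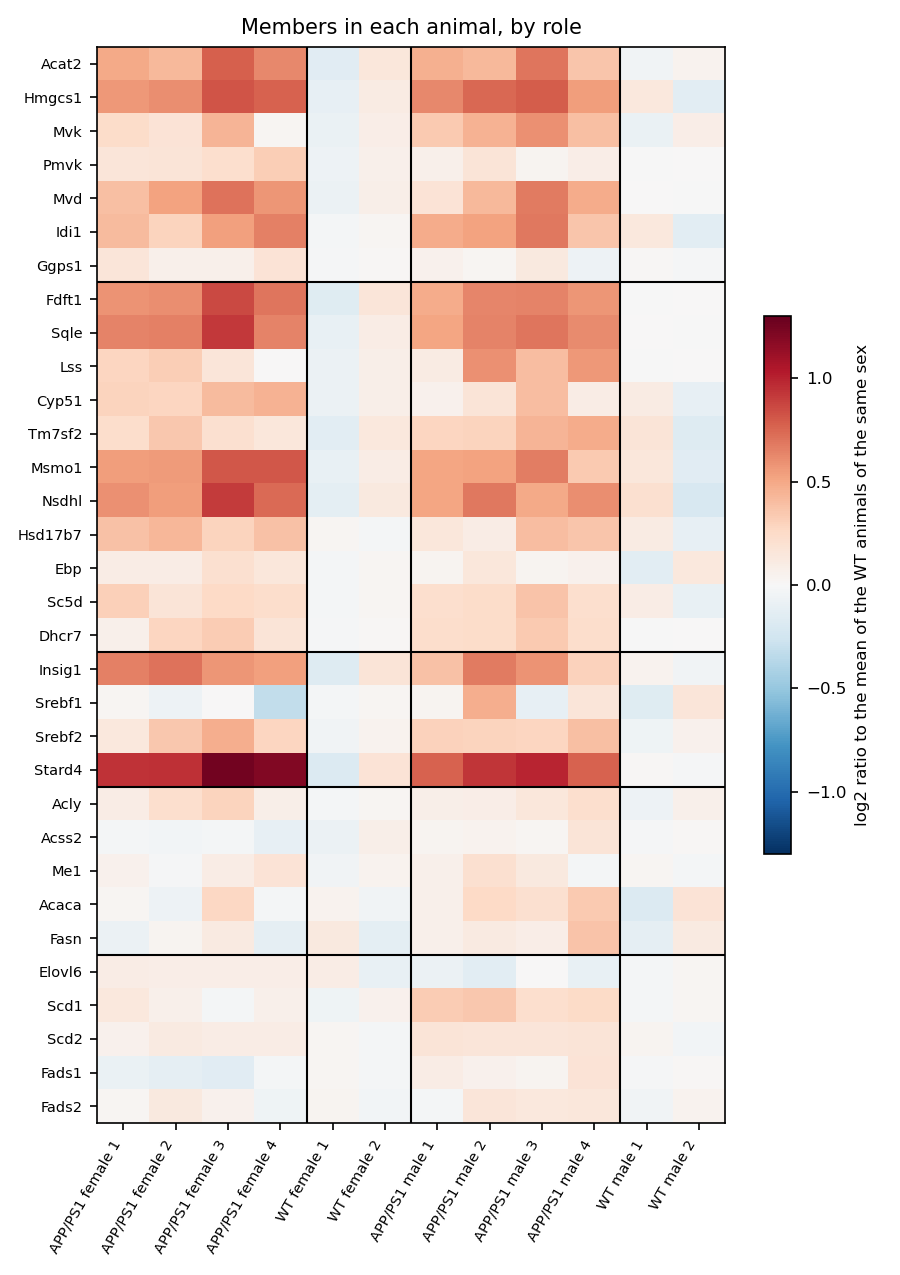
Log2 ratio of each tested member's level in an animal to the mean of the WT animals of the same sex, with members in order of role and animals in columns. Red is higher and blue lower than the WT mean, and the red cells lie mainly in the sterol and regulator genes of the 8 APP/PS1 animals.

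In the comparison of APP/PS1 with WT females, 8 of the 32 members were higher in APP/PS1 (Stard4, Sqle, Hmgcs1, Insig1, Msmo1, Fdft1, Nsdhl and Idi1), beside 0.735% of all genes. In males 6 were higher (Hmgcs1, Stard4, Sqle, Idi1, Msmo1 and Fdft1), beside 0.171% of all genes. Leaving out 1 library changed these numbers, to 1 in females without WT female 1 (Stard4), beside 0.236% of all genes in either direction, and to 0 in males without WT male 2, beside 0.0286%. Over 24 alternative fits they ran from 1 to 12 in females and from 0 to 14 in males. These comparisons and the average over both sexes share their animals, so the values are only set side by side. Stard4 had LFC 1.05, SE 0.117, edgeR FDR = 0.00208 in females and LFC 0.86, SE 0.112, edgeR FDR = 0.00980 in males. Sqle had LFC 0.73, SE 0.0964, edgeR FDR = 0.00584 in females and LFC 0.62, SE 0.0934, edgeR FDR = 0.0233 in males. Hmgcs1 had LFC 0.64, SE 0.0869, edgeR FDR = 0.00656 in females and LFC 0.66, SE 0.0847, edgeR FDR = 0.00892 in males. All 3 were called in each sex. Insig1 was called in females (LFC 0.64, SE 0.0919, edgeR FDR = 0.00893) and not in males (LFC 0.45, SE 0.0890, edgeR FDR = 0.108), and its interaction, the difference between the sexes' LFCs, was 0.19 with an unadjusted edgeR p of 0.164. Nsdhl was called in females (LFC 0.69, SE 0.135, edgeR FDR = 0.0501) and not in males (LFC 0.57, SE 0.131, edgeR FDR = 0.261), with an interaction of 0.12 and an unadjusted edgeR p of 0.539. Neither gene is thereby shown to differ between the sexes. At an unadjusted edgeR p under 0.05 stood 18 members in females, beside 9.79% of all genes, and 21 in males, beside 5.70%, which do not count as called. By the likelihood ratio test 12 members were called in females, beside 1.81% of all genes, and 14 in males, beside 0.828%. By DESeq2 the numbers were 12, beside 1.72%, and 14, beside 0.892%.

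The interaction itself was called for 0 of the 32 members with edgeR's quasi-likelihood test, and for 0 with the likelihood ratio test and with DESeq2. Among all genes, 0 of 14008 were called by the first (0%), 0.0857% by the second and 0.0642% by the third. At an unadjusted p under 0.05 it held 2 members, beside 4.03% of all genes. They were Scd1, with an interaction of -0.20 and an unadjusted edgeR p of 0.0294, and Fads1, with an interaction of -0.19 and an unadjusted edgeR p of 0.0383. Neither counts as called, and both had the higher LFC in males. Females and males were also compared within a genotype. Among APP/PS1 animals edgeR's quasi-likelihood test called 0 members, beside 0.0857% of all genes, and 0 had an unadjusted p under 0.05, beside 5.35% of all genes. Among WT animals it called 0 members, beside 0.0571% of all genes, and 2 had an unadjusted p under 0.05, beside 5.19%. These 2 were again Scd1 and Fads1, whose LFCs of WT females against WT males were 0.22 and 0.18 (unadjusted edgeR p of 0.00609 and 0.0243). Between APP/PS1 females and males their LFCs were 0.02 and -0.02. Their interactions thus rest on the level of 2 WT animals in each sex.

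Genes that handle the SREBPs or work beside the pathway were read from other lists. Of 9 genes of SREBP processing and degradation, including the Golgi proteases Mbtps1 and Mbtps2 and the second retention gene Insig2, edgeR's quasi-likelihood test called 0, 0 had an unadjusted p under 0.05, and the likelihood ratio test and DESeq2 called 0. Their median LFC was -0.01, with a range of -0.05 to 0.09. Of 6 electron donors and partners of sterol synthesis 1 rose, Tmem97, a sterol-regulated membrane protein (LFC 0.36, SE 0.0821, edgeR FDR = 0.0550), and its groups overlapped. Among all genes 1.75% were called higher. Of the 6, 2 had an unadjusted p under 0.05, beside 9.57% of all genes. Of 8 genes that use isoprenoids 0 were called by edgeR's quasi-likelihood test, by the likelihood ratio test or by DESeq2, and 0 had an unadjusted p under 0.05. The smallest p there was that of Pdss1, which makes the side chain of ubiquinone, at 0.20 (SE 0.121, edgeR FDR = 0.649). Of 24 other genes of fatty acid synthesis, activation and elongation 0 were called by any of these tools, and 6 had an unadjusted p under 0.05, beside 9.57% of all genes. Their median LFC was 0.03, and the smallest p was that of Mid1ip1, a partner of acetyl-CoA carboxylase, at 0.19 (SE 0.0558, edgeR FDR = 0.184). Of 8 genes of LXR, its targets and cholesterol turnover 0 were called by any of these tools, and 1 had an unadjusted p under 0.05, beside 9.57% of all genes, the ubiquitin ligase Mylip, at 0.25 (SE 0.0985, edgeR FDR = 0.416).

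Markers of cell types were read beside the sterol genes. Microglial markers moved with genotype too. By the quasi-likelihood test 4 of 7 rose, Csf1r, P2ry12 and Aif1 among them, beside 1.75% of all genes. The likelihood ratio test and DESeq2 each called 6 higher, beside 2.38% and 2.18% of all genes. The median LFC of the 7 markers was 0.67. Their summed level, in normalized CPM, was 633.4, 537.0, 750.1 and 533.3 in APP/PS1 females 1 to 4, 370.0 and 316.6 in WT females 1 and 2, 670.1, 638.0, 469.4 and 536.5 in APP/PS1 males 1 to 4, and 343.9 and 401.6 in WT males 1 and 2. No marker was at 0 in any library. All APP/PS1 sums lay above all WT sums, as did those of the sterol enzymes, and the part of microglia in the sterol result was not tested. The astrocyte markers, led by Slc1a2, summed to 4700 ± 231.6 (n = 8) in APP/PS1 and 4697 ± 145.3 (n = 4) in WT. The oligodendrocyte markers summed to 3282 ± 459.8 and 3235 ± 391.7 in the same order, and the neuron markers, led by Snap25, to 6454 ± 292.7 and 6423 ± 196.7. These 3 sums differed between the genotypes by less than their SD.

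With edgeR's quasi-likelihood test, 0 of 7 astrocyte, 0 of 9 oligodendrocyte, 0 of 7 neuron, 0 of 4 tested oligodendrocyte precursor, 0 of 7 choroid plexus and 0 of 5 endothelial markers were called, beside 1.90% of all genes in either direction. At an unadjusted p under 0.05 these numbers were 1, 1, 1, 2, 0 and 1, beside 9.57% of all genes, and of these 6 genes 5 were lower in APP/PS1 and 1, an oligodendrocyte precursor marker, was higher. The likelihood ratio test called 0 in each of these lists, beside 2.83% of all genes. DESeq2 called 1 oligodendrocyte, 1 neuron and 1 endothelial marker, each lower in APP/PS1, and 0 in the rest, beside 2.85%. Of the 7 hippocampal neuron markers, the quasi-likelihood test called 1 lower, Spink8, at -0.28 (SE 0.0725, edgeR FDR = 0.0987), and both other tools called 2 lower. The Spink8 groups overlapped, its exact permutation p was 0.280, and its mean normalized CPM was 20.1 ± 4.89 (SD, 4 animals) in APP/PS1 and 19.4 ± 2.09 (2 animals) in WT females, and 20.2 ± 3.60 and 26.7 ± 0.637 in males.

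**Figure D4:**
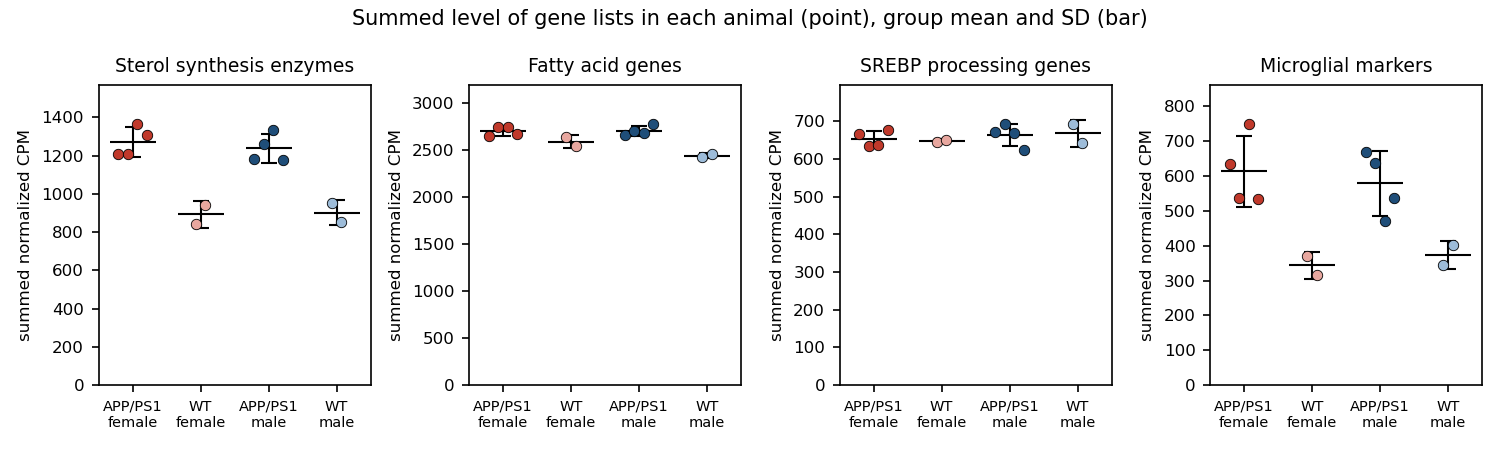
Summed normalized CPM of the 19 sterol synthesis enzymes, the 10 fatty acid genes, the 9 SREBP processing genes and the 7 microglial markers, with a point for each animal and the mean and SD of each group. The APP/PS1 animals lie above the WT animals for the sterol enzymes, the microglial markers and, by a small margin, the fatty acid genes, and the SREBP processing genes overlap.

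The counts of called members rested in part on single libraries. Calls among all genes, in either direction, changed as well and are given beside them (1.90% over both sexes, 0.771% in females and 0.171% in males with all animals). Without WT female 1 the average over both sexes held 10 called members, beside 0.671% of all genes. Without WT female 2 it held 11, beside 1.17%, and without WT male 2 it held 12, beside 1.32%. The male comparison held 3 members without APP/PS1 male 2 (Hmgcs1, Idi1 and Stard4), beside 0.0648%. With the replicate number as a block, 11 members were called over both sexes, beside 1.40%, and 3 in males, beside 0.128%.

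Without the 3 choroid-plexus-rich libraries and without RUV factors, 10 members were called over both sexes (Stard4, Hmgcs1, Sqle, Fdft1, Msmo1, Insig1, Nsdhl, Acat2, Mvd and Srebf2), beside 0.481% of all genes. In females 5 were called, beside 0.226%, and Msmo1, Nsdhl and Idi1 lost their call. In males 4 were called, beside 0.0874%, and Idi1 and Msmo1 lost their call. This fit changed 2 things at once, so its losses cannot be put down to the libraries. With 0 RUV factors and all 12 libraries, 14 members were called over both sexes, beside 1.24% of all genes, 8 in females, beside 0.478%, and 4 in males, beside 0.150%. The 4 in males (Hmgcs1, Fdft1, Sqle and Stard4) were the same as without the libraries, and in females Idi1 lost its call there too, while Msmo1 and Nsdhl kept theirs and Acat2 gained one.

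Among the 17 called members, Stard4, Hmgcs1, Sqle, Msmo1, Fdft1, Insig1, Nsdhl, Acat2 and Srebf2 were called over both sexes in each of 23 alternative fits. The other 8 lost the call in some fits, each with its LFC still above 0. Idi1 lost it in 1 fit, that without the 3 choroid-plexus-rich libraries and RUV factors (0.53), and Mvd in 1, without WT female 1 (0.46). In the same fit without these libraries and RUV factors, Lss (0.31), Hsd17b7 (0.33), Sc5d (0.26), Mvk (0.38), Dhcr7 (0.28) and Scd1 (0.18) were not called either, and of these Lss, Mvk and Scd1 had no call with 0 RUV factors and all libraries. The same 6 genes were not called with the replicate number as a block (0.29, 0.29, 0.20, 0.29, 0.23 and 0.20).

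Single animals mattered for these 6 genes too. Hsd17b7 lost the call in 5 fits in all, the further ones being without WT female 1 (0.33), WT female 2 (0.32) or WT male 2 (0.28). Sc5d also lost it in 5, with the same animals (0.23, 0.25 and 0.20). Lss lost it in 7, the further ones being with 0 or 1 RUV factors (0.32 and 0.31) and without APP/PS1 female 1 (0.32), WT female 1 (0.32) or WT female 2 (0.33). Scd1, Mvk and Dhcr7 lost it most often. Dhcr7 was not called in 10 fits, which include the FDR under 0.05 (0.24) and leaving out APP/PS1 female 2 or 3, APP/PS1 male 3 or any 1 of the 4 WT animals (0.22 to 0.27). Mvk was not called in 11, which include the FDR under 0.05 (0.36), 0 RUV factors (0.34) and leaving out APP/PS1 female 1 or 2, APP/PS1 male 2 or any 1 of the 4 WT animals (0.31 to 0.40). Scd1 was not called in 13, which include the FDR under 0.05 (0.17), 0 RUV factors (0.17), no filter on low values (0.14) and leaving out APP/PS1 female 1 or 2, APP/PS1 male 1 or 2 or any 1 of the 4 WT animals (0.15 to 0.18).

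Some members gained a call. Cyp51 did so in 6 fits, with the likelihood ratio test (0.25), DESeq2 (0.24) and a first pass on the genotype effect (0.26), and without APP/PS1 male 1 (0.27), APP/PS1 male 3 (0.22) or WT male 1 (0.30). Acly was called in 6, with the likelihood ratio test (0.17), DESeq2 (0.16) and a filter on CPM (0.17), and without APP/PS1 female 1 (0.19), APP/PS1 female 4 (0.19) or APP/PS1 male 2 (0.18). Tm7sf2 was called in 5, with the likelihood ratio test (0.32), DESeq2 (0.31), no filter (0.30) and a filter on CPM (0.33), and without WT male 1 (0.44). Scd2 was called in 1, with DESeq2 (0.11).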

How the data were processed

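RNA from the right hippocampus of 12 mice (4 APP/PS1 and 2 WT of each sex) was sequenced. Reads had been trimmed (Trimmomatic), aligned to GRCm38 (STAR) and assigned to Ensembl genes (HTSeq) by the authors. The deposited values are these counts, without normalization, 1 column per animal. The versions, the annotation release and the strand and multi-mapping options are not given in the sources used here. Symbols, positions and overlaps come from GENCODE M21, which 55480 of the 55573 identifiers matched. Total counts were 36714316 to 50643565 per library, and counting error was not compared with the spread between animals gene by gene.

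The 14008 genes that reached a log2 CPM of 1 in 3 or more libraries were tested in edgeR 4.0.16 under R 4.3.3 by the quasi-likelihood method, in 1 model of the 4 groups, with upper-quartile factors and 2 RUV factors for unwanted variation, taken from control genes (RUVg, re-implemented here). The controls were those outside the 5000 with the smallest p in a preliminary test of group. P-values were two-sided, with Benjamini-Hochberg adjustment over all genes tested and calls at an FDR under 0.1. Normalized CPM were not corrected for the RUV factors. Single members were also compared by an exact permutation test on log2 values with a pseudocount of 0.5. Alternatives were DESeq2 1.42.0, the likelihood ratio test of edgeR, other filters, TMM scaling, other RUV settings, each sex alone, the replicate number as a block, an FDR under 0.05, and leaving out libraries.

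The members and the gene lists were chosen with earlier results of these data known. Each member is named with its LFC. Described animal by animal are the 10 called members with the smallest p, and whatever their result Srebf1, Srebf2, Insig1, Acaca and Fasn. From each list of other pathway genes the called genes are named, or the gene with the smallest p. Promoters were to be shown for the 5 members with the smallest p and Srebf2. Marker lists are given by their counts and sums, with called or most abundant genes named. Other genes named outside this rule were chosen after their values were seen. Not every gene of these pathways and lists is reported here.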

Additional observations from a re-analysis of the deposited data

Results flagged for a closer look

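In groups of 4 animals, a value was singled out where the highest or lowest animal lay far from the other 3 for the size of the group's range. This was so for 7 of 64 groups of members (10.9%). The groups share the same animals across genes, and a rate by chance was not tested. Sqle was at 97.8 normalized CPM in APP/PS1 female 3, with the other APP/PS1 females between 80.8 and 81.4. Sc5d was at 105.8 in APP/PS1 male 3, with the other APP/PS1 males between 94.7 and 96.2. Dhcr7 was at 37.3 in the same male, with the others between 34.5 and 34.9. Acss2 was at 52.0 in APP/PS1 female 4, with the other APP/PS1 females between 54.8 and 55.0. In APP/PS1 male 4, Acss2 was at 55.8, with the other APP/PS1 males between 50.4 and 51. The same male had Fasn at 332.8, with the others between 268.3 and 279.1. Fads2 was at 176.4 in APP/PS1 male 1, with the other APP/PS1 males between 197.3 and 200.0. Sqle and Sc5d were called over both sexes also without the animal that stood apart, and Dhcr7 was not called without APP/PS1 male 3, at an LFC of 0.23.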

How the results depend on the processing

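Over both sexes, 23 alternative fits gave 736 values of members. Of these, 657 lay on the same side of the threshold with no change of sign, 53 lost the call, 18 gained one and 8 changed sign at 2 decimals, the last in genes that were called in no fit. Fads1, at 0.00 in the reported fit, lay between -0.03 and 0.01 and is counted with the 657. The called members were 17, 8 and 6 over both sexes, in females and in males. With 0 RUV factors they were 14, 8 and 4. In males they were 14 with the likelihood ratio test and 14 with DESeq2. With the replicate number as a block they were 11 over both sexes and 3 in males. Whether the numbers pair animals is not known. Deviations from the group means correlated above 0.1 in 4 of 14 same-numbered pairs, in a range of -0.67 to 0.73. This cannot decide it, since differently numbered pairs were not compared and the 2 WT animals of a sex mirror each other. Without the 3 choroid-plexus-rich libraries and RUV factors the called members were 10 over both sexes and 5 in females. Without 1 animal at a time they ran from 10 to 18 over both sexes, from 1 to 10 in females and from 0 to 7 in males. The interaction held 0 in each fit. Elovl6 was at -0.01 without the filter, at -0.03 without the choroid-plexus-rich libraries and RUV factors and at -0.03 to 0.05 without 1 animal. Acss2 was at -0.01 with the block and at -0.01 to 0.06 without 1 animal. Srebf1 was at -0.03 without those libraries and RUV factors and at -0.02 to 0.11 without 1 animal. The causes of these differences were not tested. Without a WT animal, the lone WT animal of that sex is assumed to vary like the other groups. With 2 WT animals per sex, the spread between WT animals rests on few values, and a member that missed the threshold is not shown to be equal. The choroid-plexus-rich libraries fall in 3 of the 4 groups. Fdps had 7 to 70 counts per library, and the cause was not tested.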
